A study of Homo sapiens with 4 samples.

Results

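The genes described here are the Notch receptors NOTCH1, NOTCH2, NOTCH3 and NOTCH4, their ligands JAG1, JAG2, DLL1 and DLL4, and the target genes HES1 and HEY1. They were chosen by name, and their probes are those whose RefSeq accession maps to one of these symbols, which gave 13 of the 26222 probes with a symbol and 10 of 17718 genes. RNA came from OVSAYO cells, a human line of ovarian clear cell carcinoma (CCC), and was hybridised to 4 single-colour Agilent whole genome arrays on 1 slide, 1 for each condition. All cells were transfected and cultured for 40 h. NS-si cells received a negative control (scramble) siRNA and Sp1-si cells siRNA against Sp1, a transcription factor that binds GC-rich promoters, and neither was exposed to CoCl2. NS-si → CoCl2 and Sp1-si → CoCl2 cells received the same siRNAs and were exposed for another 4 h to 0.5 mM CoCl2, a salt that stabilises hypoxia-inducible factors (HIFs) at normal oxygen. The study asked which genes CoCl2 activates in an Sp1-dependent manner. The conditions rest on 1 cell line, 1 siRNA reagent against Sp1 and a chemical mimic of hypoxia. The labels call that reagent a pool, whereas the methods of the study list an Sp1 siRNA from another supplier, and the text of the study gives a shorter culture before exposure than the sample labels do.

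Notch signalling passes between touching cells. A Jagged or Delta-like ligand on one cell binds a Notch receptor on its neighbour, ADAM metalloproteases and then γ-secretase cut the receptor, and the freed intracellular domain enters the nucleus, where it joins the DNA-binding protein RBPJ and switches on target genes. HES1 and HEY1 encode basic helix-loop-helix repressors and are the best known of these targets. In many cell types HIFs have been linked to Notch activity under low oxygen.

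Because the study varied Sp1 and stabilised HIFs, the 250 bases before the start of 5 of the genes are shown with the short motifs of Sp1, HIF and RBPJ. The sequences are from RefSeq (GRCh38.p14) and are written 5′ to 3′ on the strand of the gene. Promoters of 8 of the 10 genes were searched, and those of DLL1 and HEY1 were not. Capitals mark, on either strand, the GC box of Sp1 (GGGCGG), the core of the hypoxia response element (ACGTG or GCGTG) and the RBPJ core (TGGGAA).
NOTCH1, chr9:136546049-136546298, minus strand: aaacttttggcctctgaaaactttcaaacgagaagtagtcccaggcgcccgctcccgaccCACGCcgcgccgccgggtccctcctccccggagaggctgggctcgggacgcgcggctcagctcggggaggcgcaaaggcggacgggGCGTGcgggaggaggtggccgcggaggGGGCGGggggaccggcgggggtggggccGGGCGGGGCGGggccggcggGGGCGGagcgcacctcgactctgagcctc
NOTCH2, chr1:120069663-120069912, minus strand: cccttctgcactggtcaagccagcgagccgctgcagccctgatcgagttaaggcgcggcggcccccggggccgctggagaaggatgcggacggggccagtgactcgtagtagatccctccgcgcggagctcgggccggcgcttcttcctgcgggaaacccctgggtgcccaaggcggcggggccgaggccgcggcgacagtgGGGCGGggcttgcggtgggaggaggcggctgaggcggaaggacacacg
JAG1, chr20:10674000-10674249, minus strand: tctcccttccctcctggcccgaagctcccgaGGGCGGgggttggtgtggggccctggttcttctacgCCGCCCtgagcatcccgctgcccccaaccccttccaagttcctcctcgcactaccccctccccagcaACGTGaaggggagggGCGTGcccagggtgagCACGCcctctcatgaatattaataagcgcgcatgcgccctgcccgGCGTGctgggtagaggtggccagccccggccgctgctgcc
JAG2, chr14:105168777-105169026, minus strand: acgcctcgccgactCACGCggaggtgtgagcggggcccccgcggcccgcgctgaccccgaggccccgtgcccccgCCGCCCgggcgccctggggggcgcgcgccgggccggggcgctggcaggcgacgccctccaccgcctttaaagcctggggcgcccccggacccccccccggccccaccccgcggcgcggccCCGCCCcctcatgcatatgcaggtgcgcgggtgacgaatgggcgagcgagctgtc
HES1, chr3:194135898-194136147, plus strand: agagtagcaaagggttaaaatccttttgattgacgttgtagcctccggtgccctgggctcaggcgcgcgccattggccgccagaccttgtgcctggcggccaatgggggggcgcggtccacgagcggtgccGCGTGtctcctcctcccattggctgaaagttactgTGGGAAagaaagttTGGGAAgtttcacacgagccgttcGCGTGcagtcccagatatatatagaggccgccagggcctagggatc
NOTCH1 had 4 GC boxes, of which a pair overlapped by a base, and 2 hypoxia response element cores. NOTCH2 had 1 GC box and no other match. JAG1 had 2 GC boxes and 4 hypoxia response element cores, and JAG2 had 2 and 1. HES1 had no GC box, 2 hypoxia response element cores and, alone among the 8 promoters searched, matches to the RBPJ core, a pair lying between 84 and 65 bases before the start. Whether the promoter of HEY1, the other target, holds one was not examined. Of 35116 promoters of this length, 42.6% held a GC box, 43.2% a hypoxia response element core and 20.8% an RBPJ core. At least 3 GC boxes were held by 13.9% and at least 3 hypoxia response element cores by 7.76%. A match is a description of the letters and does not show that a factor binds there.

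Signals are given after each array was brought to a common 75th percentile of 1121, so that values of a probe on different arrays can be compared, whereas values of different probes cannot. The unscaled 75th percentiles were 977 to 1287, and between 33081 and 34542 of 43376 spots per array were well above background, which is the call of the scanner software that a spot exceeds its local background. With 1 array per condition no test was possible, the number of arrays limits the precision, and differences between cultures were not measured. The only error is technical, the SD between repeated spots, taken for single-spot probes from the 53 probes of closest signal among the 264 that have 10 spots. A log2 ratio of at least 1 in size, 2-fold, with the probe well above background on every array compared, was counted as a difference. In lysates of whole cultures, fewer cells making a transcript and less of it per cell cannot be told apart. The SP1 probe with 10 spots had a scaled signal of 543 with NS-si against 39.9 with Sp1-si, and 492 in NS-si → CoCl2 and 33.7 in Sp1-si → CoCl2 cells, so the target of the siRNA was lower in both silenced cultures. The CCC markers NAPSA, PAX8, ARID3A and SPP1 and all 6 epithelial markers examined, EPCAM and CDH1 among them, were well above background on all 4 arrays. Of the endothelial markers PECAM1, CDH5 and KDR missed that call on every array, as did the leukocyte gene PTPRC, the fibroblast genes COL3A1 and PDGFRB and the serous marker WT1, whereas VWF, DCN, CD3E, CD14, CD68, ESR1 and PGR passed it on all 4, and their part in the results was not tested. Some of these markers differed by 2-fold or more with Sp1 silencing. NAPSA was at -2.33 without and -2.39 with CoCl2, CDH1 at -1.55 and -1.73, CD68 at -1.48 and -1.37, and ARID3A at 1.08 without CoCl2 and -0.045 with it.

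Of the 13 Notch probes, 11 were well above background on all 4 arrays. DLL4, the Delta-like ligand best known from sprouting vessels, stayed under the well-above-background call on all 4 arrays, at scaled signals of 1.94 to 5.38, and no ratio is given for it. A second probe of NOTCH4 (A_23_P365614) missed the call on the NS-si → CoCl2 array.

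**Figure D1:**
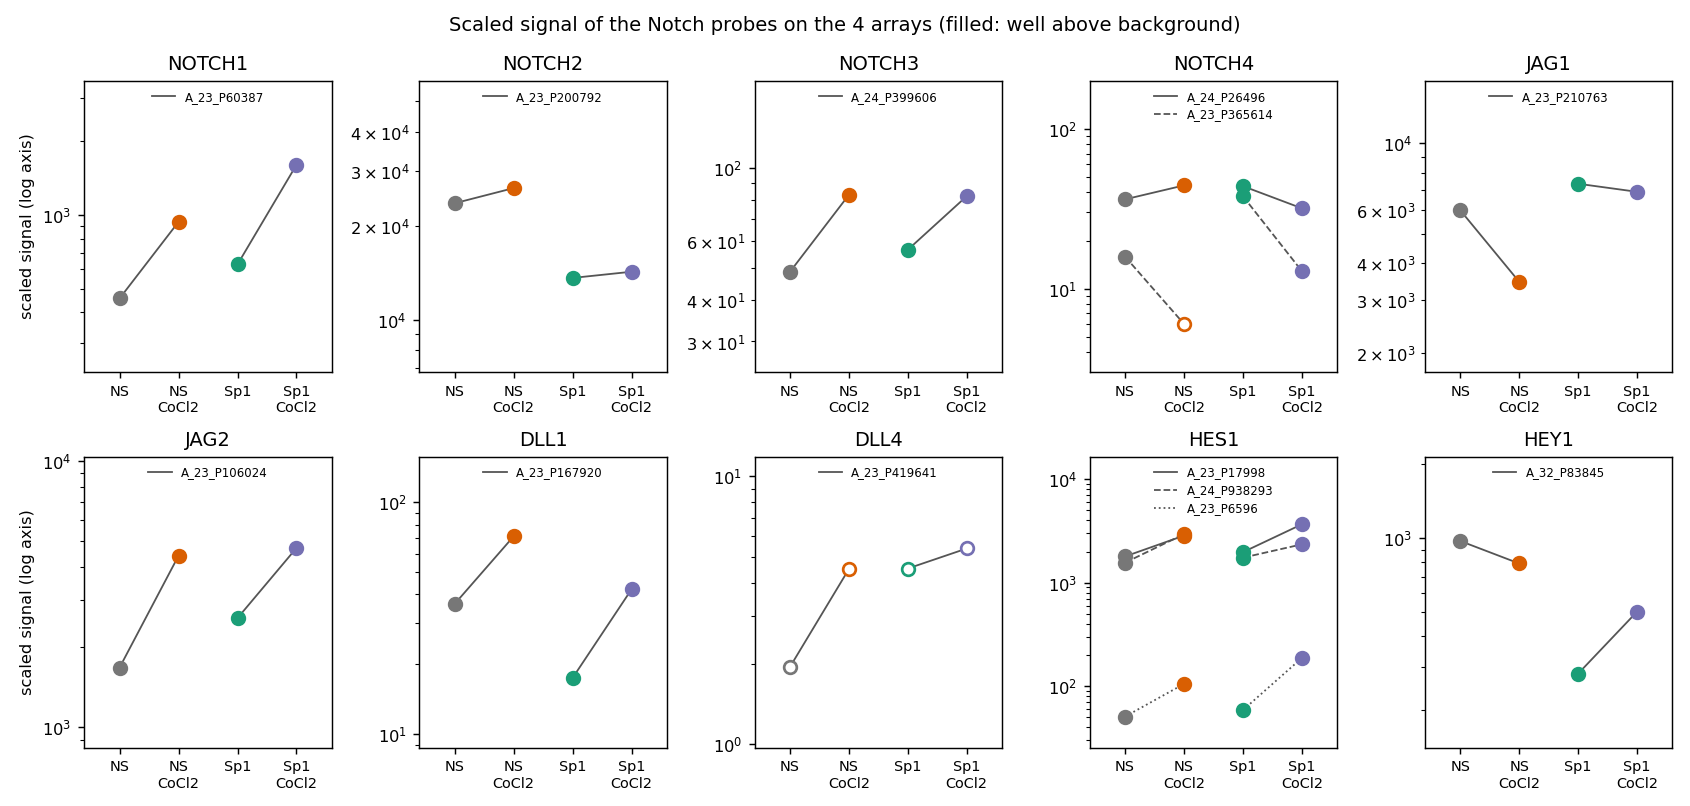
Scaled signal (log axis) of each probe of the 10 genes in NS-si, NS-si → CoCl2, Sp1-si and Sp1-si → CoCl2 cells, with a line joining the arrays without and with CoCl2 and 1 point per array, filled where well above background. NOTCH1, NOTCH3, JAG2, DLL1 and all 3 HES1 probes are higher with CoCl2 in both kinds of cells, JAG1 is lower with CoCl2 in NS-si cells, and HEY1 drops from 976 in NS-si to 282 in Sp1-si cells.

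NOTCH1, the receptor with 10 spots on each array (A_23_P60387), was higher with CoCl2 in both kinds of cells. Its scaled signal was 456 in NS-si, 938 in NS-si → CoCl2, 628 in Sp1-si and 1604 in Sp1-si → CoCl2 cells. The spots ran from 418 to 491 in NS-si, from 603 to 681 in Sp1-si, from 906 to 1001 in NS-si → CoCl2 and from 1488 to 1706 in Sp1-si → CoCl2 cells. No spot of one array overlapped those of another, and NOTCH1 was highest where Sp1 was silenced and CoCl2 present. The log2 ratio of CoCl2-treated to untreated cells was 1.04 with NS-si (SD between spots 0.079, n = 10 spots) and 1.35 with Sp1-si (SD 0.072). The ratio in NS-si cells fell below 2-fold when the arrays were left unscaled (0.81), with the authors' value table (0.96) and with normexp, another background correction (0.93). Sp1-si relative to NS-si cells were at 0.46 without CoCl2 and 0.77 with it, short of 2-fold. The CoCl2 ratio was thus larger by 0.31 in Sp1-si cells, and the SD of this gap over the spots was 0.11. Over the scalings and background corrections 0.31 was the lowest value of the gap, which reached 0.77 when the arrays were left unscaled.

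**Figure D2:**
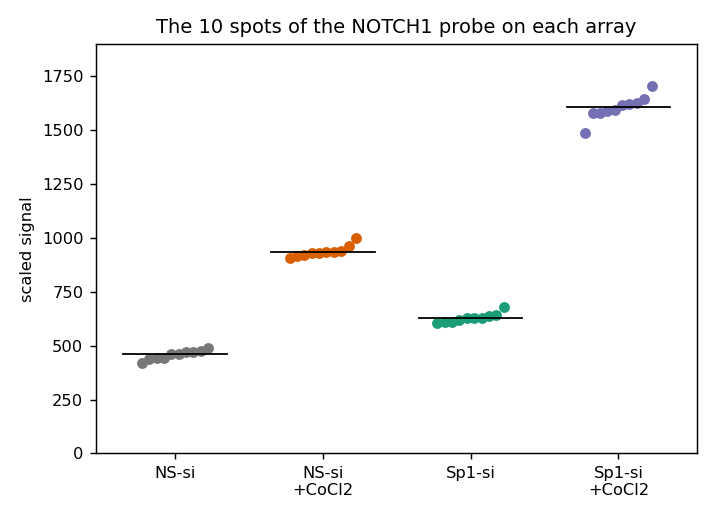
Scaled signal of the 10 spots of the NOTCH1 probe on each of the 4 arrays, with 1 point per spot, ordered by value, and a line at the median. The medians are 460 (NS-si), 933 (NS-si → CoCl2), 628 (Sp1-si) and 1605 (Sp1-si → CoCl2), and the 4 sets of spots do not overlap.

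NOTCH2, a receptor with overlapping roles to NOTCH1, differed more between the siRNAs than with CoCl2. Its scaled signal was 23635 in NS-si and 26425 in NS-si → CoCl2 cells against 13634 in Sp1-si and 14271 in Sp1-si → CoCl2 cells, so both silenced cultures lay below both control cultures. The log2 ratio of Sp1-si to NS-si cells was -0.79 without and -0.89 with CoCl2, with technical SDs of 0.060 and 0.061, and neither reached 2-fold. The second ratio was -0.49 in unscaled arrays. The CoCl2 ratios were 0.16 with NS-si and 0.066 with Sp1-si, and the sign of the first turned without scaling and that of the second under quantile normalization. The NOTCH2NL genes are near-identical partial copies of NOTCH2, and whether their transcripts reach this probe was not tested.

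NOTCH3 and NOTCH4 gave dim signals. NOTCH3, a receptor known from smooth muscle and from ovarian carcinoma, had scaled signals of 48.6 in NS-si, 82.8 in NS-si → CoCl2, 56.6 in Sp1-si and 82.1 in Sp1-si → CoCl2 cells. Both CoCl2-treated cultures were above both untreated ones, at log2 ratios of 0.77 (technical SD 0.14) with NS-si and 0.54 (0.12) with Sp1-si. Normexp brought them to 0.50 and 0.20. The probes of NOTCH4, a receptor best known from endothelium, did not give the same values. For A_24_P26496 the signal stayed between 31.8 and 44.3 on the 4 arrays, with CoCl2 ratios of 0.29 with NS-si and -0.46 with Sp1-si at technical SDs of 0.16 and 0.15. For A_23_P365614 it was 15.9 in NS-si, 37.9 in Sp1-si and 12.9 in Sp1-si → CoCl2 cells, and the NS-si → CoCl2 value of 6.02 was not well above background. That probe was lower with CoCl2 by -1.56 in Sp1-si cells and at least 1.996-fold lower in NS-si cells, and above NS-si cells in Sp1-si cells by 1.26 without CoCl2 and at least 1.62-fold with it. A bound is set against the lowest signal well above background on the dim array. Normexp brought the ratios past 2-fold below it. No direction for NOTCH4 holds over both of its probes for CoCl2 in NS-si cells, nor for Sp1 silencing with CoCl2, where A_24_P26496 was at -0.48.

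Of the Jagged ligands, JAG2 was higher with CoCl2 in NS-si cells by over 2-fold, and the ratio of JAG1 had the opposite sign and fell short of 2-fold. JAG2 had scaled signals of 1677 in NS-si, 4409 in NS-si → CoCl2, 2572 in Sp1-si and 4714 in Sp1-si → CoCl2 cells. Its log2 CoCl2 ratio in NS-si cells was 1.39 (technical SD 0.069), the highest of the Notch probes there, which 1.79% of all probes reached. In Sp1-si cells it was 0.87, and the gap between the CoCl2 ratios, -0.52, shrank to -0.067 when the arrays were left unscaled. JAG2 in Sp1-si cells was above NS-si cells by 0.62 without CoCl2 and by 0.096 with it.

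JAG1, the other Jagged ligand, had scaled signals of 5991 in NS-si, 3459 in NS-si → CoCl2, 7339 in Sp1-si and 6897 in Sp1-si → CoCl2 cells. The NS-si → CoCl2 array stood apart below the other 3. The log2 CoCl2 ratio was -0.79 (technical SD 0.064) with NS-si and -0.089 (0.067) with Sp1-si, and the latter turned positive under median scaling and without scaling. With CoCl2, JAG1 in Sp1-si cells was above NS-si cells by a log2 ratio of 0.996 (0.068), a value just under the 2-fold limit that passed it under each other scaling tried, with the authors' value table and with normexp background correction. Without CoCl2 that ratio was 0.29. The difference between the CoCl2 ratios, Sp1-si minus NS-si, was 0.70 and lay between 0.70 and 1.16 over the scalings and background corrections.

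DLL1, a Delta-like ligand, was dim but well above background on every array, with scaled signals of 36.5 in NS-si, 71.2 in NS-si → CoCl2, 17.5 in Sp1-si and 42.1 in Sp1-si → CoCl2 cells. CoCl2-treated cells were higher in both pairs, by 0.97 (technical SD 0.14) with NS-si and 1.27 (0.17) with Sp1-si. Sp1-si cells were lower than NS-si cells by -1.06 (0.19) without and -0.76 (0.15) with CoCl2. The CoCl2 ratios differed by 0.30, against a technical SD of 0.24, and this difference turned to -0.29 with normexp. Normexp brought the CoCl2 ratios to 0.54 and 0.25 and the ratio for Sp1 silencing without CoCl2 to -0.24, so no DLL1 ratio passed 2-fold with it.

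HES1 is measured by 3 probes, and all 3 were higher with CoCl2 in both kinds of cells. The probe of highest signal (A_23_P17998) read 1795 in NS-si, 2854 in NS-si → CoCl2, 1975 in Sp1-si and 3675 in Sp1-si → CoCl2 cells. For A_24_P938293 the values were 1563, 2949, 1748 and 2352 in the same order, and for the much dimmer A_23_P6596 they were 50.7, 105, 58.7 and 187. In NS-si cells the log2 CoCl2 ratios of the 3 probes were 0.67, 0.92 and 1.05, with technical SDs from 0.070 to 0.13. In Sp1-si cells they were 0.90, 0.43 and 1.68. The dim probe alone passed 2-fold, in both kinds of cells. Without CoCl2, Sp1-si and NS-si cells differed little, by 0.14, 0.16 and 0.21. With CoCl2 the 3 probes gave 0.37, -0.33 and 0.84 for the same comparison, so no direction for HES1 holds over its probes there, although the second reached 0.071 without scaling, and the differences between the CoCl2 ratios, 0.23, -0.49 and 0.63, had no common sign either.

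HEY1, the other target, showed the largest ratio of the Notch probes to Sp1 silencing. Its scaled signal was 976 in NS-si, 791 in NS-si → CoCl2, 282 in Sp1-si and 504 in Sp1-si → CoCl2 cells, and both silenced cultures were below both control cultures. Without CoCl2, Sp1-si cells were 3.46-fold lower than NS-si cells, a log2 ratio of -1.79 with a technical SD of 0.081, and 1.16% of all probes were as low. This ratio stayed between -1.85 and -1.59 over the scalings and background corrections. With CoCl2 the ratio was -0.65, and -0.25 in unscaled arrays. The CoCl2 ratio was -0.30 with NS-si and 0.84 with Sp1-si (technical SDs 0.075 and 0.083). The signs were opposite, but neither ratio reached 2-fold, and 21.7% of all probes were as low as the first. The gap of 1.14 between these ratios had a technical SD of 0.12, and 0.636% of all probes had one as large.

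Set against all probes, the question of what CoCl2 does to Notch genes in NS-si cells had 3 of 11 measured Notch probes higher by at least 2-fold, those of NOTCH1, JAG2 and 1 of HES1, against 4.07% of 21440 probes. None of the 11 was lower, against 3.04% of all probes. The median log2 ratio was 0.77 over the Notch probes and 0.013 over all probes, and 9 of the 11 were above 0. These counts hold HES1 3 times. By gene, each by its probe of highest signal, 2 of 9 were higher, against 3.80% of 14621 genes, and 7 were above 0. Unscaled arrays, where the median of all probes moved to -0.21 and 2.50% of them were higher and 5.56% lower, left only the JAG2 probe past 2-fold, as did the authors' value table and normexp, and put JAG1 at -1.02, past 2-fold lower. Of all probes 3.37% were higher with the authors' value table and 2.41% with normexp. In Sp1-si cells 3 of 12 Notch probes were higher, those of NOTCH1, DLL1 and 1 of HES1, against 3.72% of 21190 probes, and 1, the dim NOTCH4 probe, was lower, against 4.38%. The median there was 0.69 over the Notch probes and 0.0079 over all. By gene 2 of 9 were higher, against 3.45% of 14451 genes, and 0 lower, against 3.72%. The number higher became 6 without scaling, with JAG2, a second HES1 probe and HEY1 added, the median of all probes at 0.24 and 6.68% of them higher.

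**Figure D3:**
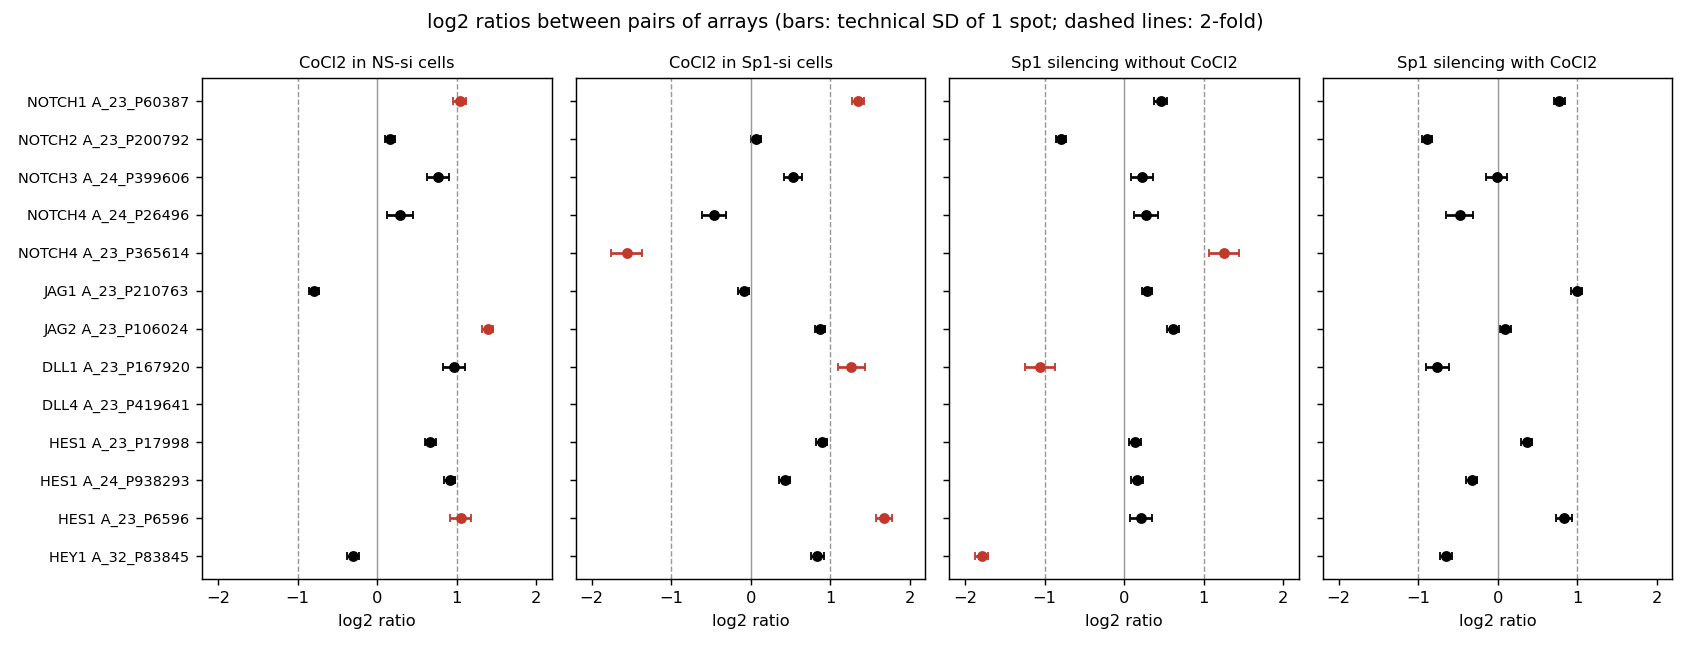
The log2 ratio of each probe in the 4 comparisons of array pairs, with bars of 1 technical SD of a single spot, dashed lines at 2-fold, red points past them, and no point where an array was not well above background. CoCl2 ratios lie mostly right of 0 in both kinds of cells, and the HEY1 probe stands at -1.79 for Sp1 silencing without CoCl2.

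Sp1 silencing without CoCl2 left 2 of 12 Notch probes lower by at least 2-fold, DLL1 and HEY1, against 5.77% of 21460 probes, and 1, the dim NOTCH4 probe, higher, against 5.62%. The median log2 ratio was 0.22 over the Notch probes and -0.013 over all probes. With CoCl2 present, 0 of 11 passed 2-fold in either direction, against 6.85% of 21084 probes higher and 8.20% lower. Here 5 of the 11 were above 0 and 6 below, between -0.89 for NOTCH2 and 0.996 for JAG1, but NOTCH3, at -0.012, was above 0 under each other scaling and with the authors' value table. Without scaling, which moved the median of all probes to 0.37 and the shares of all probes to 15.8% higher and 3.85% lower, the count higher was 3, with NOTCH1, JAG1 and 1 of HES1. Of the 9 measured Notch genes, each by its probe of highest signal, HEY1 was the 1 whose CoCl2 responses differed by 2-fold or more, Sp1-si minus NS-si, against 0.973% of 14285 genes. A difference of -1 or lower was seen for 0 of the 9, against 2.88%. Without scaling, which moved the median of all probes to 0.46 and put 6.60% of all probes at 2-fold higher and 0.722% at 2-fold lower, JAG1 joined HEY1, while the representative probe of HES1 was at 0.68.

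Of 79 other genes of the pathway, 74 had a probe, each gene being represented by its probe of highest mean signal. The median log2 ratio over those measured was 0.13 against 0.00273 for CoCl2 in NS-si cells, 0.073 against -0.00137 for CoCl2 in Sp1-si cells, 0.12 against -0.012 for Sp1 silencing without CoCl2 and 0.088 against -0.017 with it. CoCl2 in NS-si cells left 4 of 68 measured genes higher, BHLHE40, MFNG, DLK1 and RBPJ, and 0 lower, against 3.80% higher and 3.22% lower among all genes. In Sp1-si cells 2 of 67 were higher, BHLHE40 and MFNG, against 3.45%, and 0 lower, against 3.72%. Sp1 silencing left 4 of 67 higher in both the absence and the presence of CoCl2, KAT2B, TLE3, HES2 and BHLHE41, against 5.87% and 7.06% of genes. Lower were ADAM17 and MFNG without CoCl2, against 5.81%, and ADAM17, ADAM10, MFNG and HES7 with it, against 7.72%. The CoCl2 responses differed by at least 2-fold in 3 of 67, RBPJ, HES7 and DLK1, each with the lower response in Sp1-si cells, against 2.88% of all genes, and 0 had the higher response there, against 0.973%. None of the 3 passed 2-fold without scaling, where they were at -0.59, -0.57 and -0.87, nor with normexp, and DLK1 alone did under median scaling. Without scaling the counts turned round, with 3 genes higher, APH1A, HES2 and KAT2A, and 0 lower. Of all probes 6.60% were then higher and 0.722% lower. With normexp the counts for Sp1 silencing without CoCl2 were also lower, 2 genes higher (HES2 and BHLHE41) and 1 lower (ADAM17), and with CoCl2 2 were higher (HES2 and TLE3). Of all probes, 3.32% were higher and 3.03% lower without CoCl2 under normexp, and 3.89% higher with CoCl2. For CoCl2 itself normexp left 3 genes higher in NS-si cells, without DLK1, and 1 in Sp1-si cells, BHLHE40, against 2.41% and 2.21% of all probes. MFNG in Sp1-si cells was at 0.62 with normexp and 0.96 with the authors' value table. Without scaling 10 genes were higher for Sp1 silencing with CoCl2 and 4 for CoCl2 in Sp1-si cells, against 15.8% and 6.68% of all probes. The number lower for Sp1 silencing with CoCl2 was then 2 in place of 4, against 3.85% of all probes, with ADAM10 at -0.84 and HES7 at -0.80.

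RBPJ, the DNA-binding partner of the cleaved receptors, had scaled signals of 5089 in NS-si, 12463 in NS-si → CoCl2, 9386 in Sp1-si and 11180 in Sp1-si → CoCl2 cells. NS-si cells without CoCl2 stood below the other 3 arrays. Its CoCl2 ratio was 1.29 (technical SD 0.065) with NS-si and 0.25 (0.064) with Sp1-si, and a second probe gave 1.19 and 0.38. Sp1-si cells without CoCl2 exceeded NS-si cells by 0.88, and by 0.95 on the second probe, whereas with CoCl2 the probes gave -0.16 and 0.15. The difference between the CoCl2 ratios was -1.04 for the first probe and -0.80 for the second, the latter short of 2-fold.

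ADAM17 had the lowest ratio of the pathway list to Sp1 silencing, both without and with CoCl2. This protease, which sheds the extracellular part of many membrane proteins, had log2 ratios of -1.38 without and -1.79 with CoCl2, and -1.45 and -1.84 on its second probe. ADAM10, the protease that makes the ligand-dependent cut of Notch, was lower by -0.90 without and -1.24 with CoCl2. The γ-secretase genes PSEN2, NCSTN, APH1A and PSENEN stayed short of 2-fold in every comparison, and APH1B was well above background on 1 array only. MFNG, a fringe glycosyltransferase that adds sugar to Notch receptors and shifts their choice of ligand, was higher with CoCl2 by 1.44 with NS-si and 1.01 with Sp1-si and lower with Sp1 silencing by -1.11 without and -1.54 with CoCl2. Its second probe gave 0.86, 0.73, -0.51 and -0.64, the same directions below 2-fold.

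Among nuclear partners, KAT2B, an acetyltransferase recruited to active Notch complexes, was higher in Sp1-si cells by 1.34 without and 1.43 with CoCl2. Its probe was dim, at 51.8 in NS-si cells, and normexp brought both ratios to 0.84. A second KAT2B probe missed the background call with NS-si, and was at least 2.72-fold higher with Sp1-si without CoCl2 and 1.77-fold with it. TLE3, a Groucho co-repressor that HES proteins recruit, was higher in Sp1-si cells by 1.32 without and 1.46 with CoCl2, and by 0.94 and 1.40 on its second probe. Of the relatives of HES1 and HEY1, HES2 was higher in Sp1-si cells by 1.22 and 1.80, whereas HES7 was at -0.17 without and -1.20 with CoCl2. HES4 was at 0.71 with CoCl2 in each kind of cells, and HEY2 was well above background on the Sp1-si array only. HEYL, which was dim, had the lowest CoCl2 ratios of those measured in this group, -0.86 with NS-si and -0.49 with Sp1-si (technical SDs 0.29 and 0.21). Without scaling the first of these passed 2-fold. BHLHE40, a helix-loop-helix repressor known as a hypoxia-responsive gene, had the highest CoCl2 ratios of the pathway, 1.70 with NS-si and 2.06 with Sp1-si. DLK1, a Delta-like protein that lacks the receptor-binding domain of the classical ligands, was dim, with a CoCl2 ratio of 1.32 (technical SD 0.25) in NS-si cells and 0.0019 after Sp1 silencing. Normexp brought the first of these to 0.46, short of 2-fold.

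**Figure D4:**
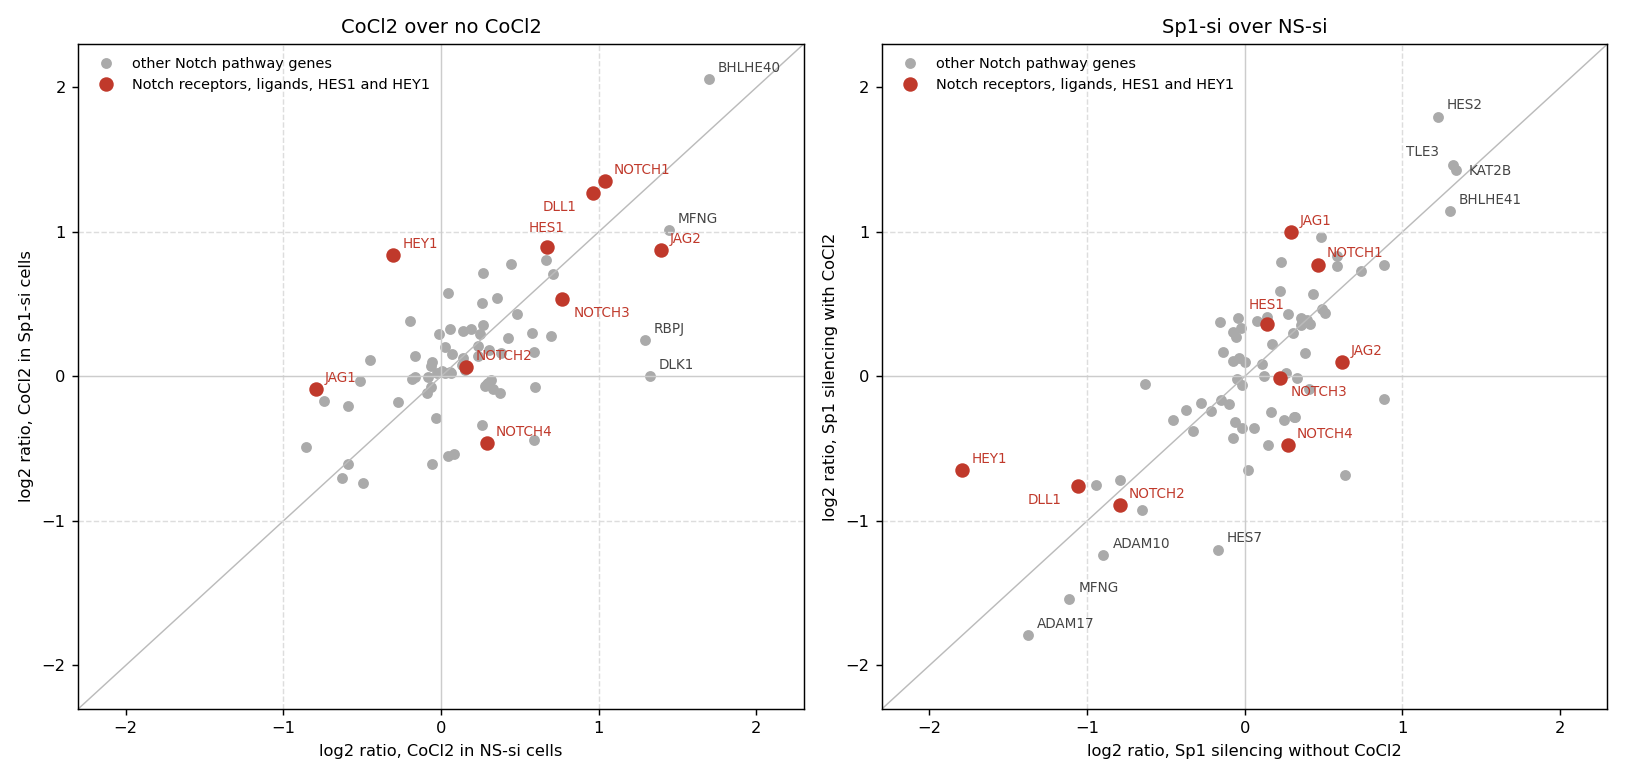
The log2 CoCl2 ratio in NS-si (x axis) against that in Sp1-si cells (y axis) and the log2 ratio of Sp1-si to NS-si cells without (x axis) against with CoCl2 (y axis), with 1 point per gene, the Notch receptors, ligands, HES1 and HEY1 in red, other pathway genes in grey, named where past 2-fold, and a line where the axes are equal. HEY1 lies at -0.30 and 0.84 in the first panel, and RBPJ at 1.29 and 0.25.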

How the data were processed

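Single-colour arrays, 1 per condition, measured the RNA of OVSAYO cells. The authors deposited intensities as they came from Agilent Feature Extraction (10.5.1.1), background-subtracted and detrended within each array, without normalization between arrays. The authors' deposited value table holds the same intensity multiplied by 1 constant per array. The flags for outlier spots and for signal above background are other columns of the deposited scanner files, and how that constant was set is not given in the sources used here.

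The log2 processed signals minus the 75th percentile of each array were averaged over the spots of a probe without outlier spots. A probe was well above background when at least 50% of its spots were. RefSeq accessions matched 28463 of 29877 spots that carry one. The array annotation is on an older build than the RefSeq table, so no probe coordinates are given. Each gene was represented by its probe of highest mean log2 signal, and all probes of the 10 Notch genes are described. Other pathway genes were named where they passed 2-fold in a comparison of array pairs or stood at an end of their role group, and a few others were named after their values were seen. The Notch genes and the pathway list were chosen with earlier results of these data known. Some items of the lists are not reported here. Counting was checked on simulated data with planted ratios well past the limit on brighter probes. That check does not bear on dim probes or on ratios near 2-fold. Alternatives were other scalings, the authors' table, a floor, outlier spots kept, other filters, a 1.5-fold limit and the mean over probes. The normexp correction, chosen after seeing the data, used median signals because the files read here hold no mean signal column. Python 3.11.15, numpy 2.4.6, pandas 2.3.3, matplotlib 3.10.9, R 4.3.3 and limma 3.58.1 were used.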

Additional observations from a re-analysis of the deposited data

Results flagged for a closer look

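For 4 of 76 Notch and other pathway genes, or 5.26%, the CoCl2 ratio had opposite signs without and with Sp1 silencing, each beyond 2 technical SDs, with the probe well above background on all 4 arrays. Of all 14285 genes with such probes, 6.06% met the same rule, so the share was near the background. With 1 array per condition these differences were not tested. HEY1 had a difference of 1.14 between its log2 CoCl2 ratios, Sp1-si minus NS-si, from -0.30 in NS-si to 0.84 in Sp1-si cells. HES7 had a difference of -1.03, from 0.59 to -0.44, and APH1A, a γ-secretase subunit, one of 0.58, from -0.20 to 0.38. EPN2, an endocytic adaptor, had one of 0.31, from -0.17 to 0.14. The signs stayed opposite under all 8 other settings of scaling, value table, floor, outlier spots and background correction for each of the 4 genes. Keeping outlier spots and the floor could not move these ratios, so only the remaining settings could have changed a sign. Unscaled, the ratios were -0.53 and 1.06 for HEY1 and 0.36 and -0.21 for HES7.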

How the results depend on the processing

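No paired analysis was possible because each group has 1 array. Of 120 counts of Notch probes under alternatives, 90 stayed within 1.5 times the main value and 30 did not, and of 405 ratios of the Notch genes 317 moved by less than the technical SD, 88 by more, and 0 with a main size of at least 1 changed sign. Keeping outlier spots and the floor could move neither these counts nor these ratios, and the mean over probes could move only the ratios of HES1. Both the 90 and the 317 thus include values that were fixed. For CoCl2 in NS-si cells the number higher was 1 in place of 3 without scaling, with the authors' value table and with normexp, and 7 at 1.5-fold, and the number lower was 1 in place of 0 without scaling (JAG1), without a filter on dim probes (NOTCH4) and at 1.5-fold (JAG1). Of all probes, 2.50% were higher without scaling, 3.37% with the authors' value table and 2.41% with normexp, against 4.07%. For CoCl2 in Sp1-si cells the number higher was 6 in place of 3 without scaling and at 1.5-fold, and the number lower was 0 in place of 1 with normexp, with only probes well above background on all 4 arrays and with the mean over probes. For Sp1 silencing without CoCl2 the number higher was 0 in place of 1 under those same 3 settings and 2 without a filter and at 1.5-fold, and the number lower was 1 in place of 2 with normexp (HEY1). For Sp1 silencing with CoCl2 the number higher was 1 in place of 0 under quantile normalization, median scaling, the authors' value table, normexp and a percentile taken over the probes detected on every array (JAG1 each time) and without a filter (NOTCH4), and 3 without scaling and at 1.5-fold, and the number lower was 3 at 1.5-fold. Of all probes, 7.99%, 8.76%, 7.84%, 3.89% and 7.06% were higher from quantile normalization to that percentile, in that order, against 6.85%. For the difference of the CoCl2 responses the number higher was 3 in place of 1 without scaling and at 1.5-fold, and the number lower was 1 in place of 0 at 1.5-fold (NOTCH4). Normexp left 2.44% of all probes lower for CoCl2 in Sp1-si cells, and 3.32% higher and 3.03% lower for Sp1 silencing without CoCl2. No share of all probes was computed at 1.5-fold, for the filters or for the mean over probes, so those counts cannot be set against one. The causes were not tested beyond the construction of each setting. Unscaled arrays moved the median of all probes to 0.46 for that difference, and median scaling moved it to 0.12 for CoCl2 in Sp1-si cells and 0.11 for that difference. Of all probes past 2-fold, the share that was higher was 57.2%, 45.9%, 45.5% and 22.3% for CoCl2 in NS-si cells, CoCl2 in Sp1-si cells, Sp1 silencing with CoCl2 and the difference. Without scaling it was 31.0%, 72.5%, 80.4% and 90.2%, median scaling gave 58.6% for the second, 56.7% for the third and 35.9% for the last, and quantile normalization 34.4% for the last. Normexp on mean signals, planned, was not run because the files read here hold no such column. The lowest signal well above background was 6.72 to 10.2 on the 4 arrays before scaling, so DLL4 and the dim NOTCH4 probe lie at the limit of what could be measured.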

Other observations

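Over the 14285 genes well above background on all 4 arrays, those whose log2 levels, centred over the arrays, came closest to HES1 (A_23_P17998) were PUSL1, ETS2 and EPG5, at root mean square differences of 0.0288, 0.0357 and 0.0374 over 4 arrays. For HEY1 they were NEK2, TCF19 and SSBP2, at 0.0874, 0.0989 and 0.108. NEK2, the closest, stood at -1.70 without and -0.80 with CoCl2 for Sp1 silencing (log2), beside -1.79 and -0.65 for HEY1. Likeness over 4 arrays of 1 culture each is a description only.

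The groups of pathway genes that act on ligand uptake (MIB1, MIB2, NEURL1, EPN1 and EPN2) and on receptor turnover held no measured gene past 2-fold in any comparison, with NEURL1B and DTX4 not measured in any of them. In the first the log2 ratios for Sp1 silencing ran from -0.14 for EPN2 to 0.74 for MIB2 without CoCl2. In the second, ITCH, a ubiquitin ligase of Notch receptors, was lowest at -0.94 without and -0.75 with CoCl2, and DTX2, a Deltex ligase, was highest without CoCl2 at 0.88. With CoCl2 the highest was DTX3L, at 0.96, which passed 2-fold without scaling, under quantile normalization and median scaling and with the authors' value table. Without scaling DTX2 and MIB2 passed as well.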
